A study of Mus musculus with 6 samples.

Results

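The Phlda genes, family A of the pleckstrin-homology-like domain genes, comprise Phlda1, Phlda2 and Phlda3. Every probe set whose annotation names a single gene was searched for these symbols. This gave 3 probe sets, 1 for each gene, among the 19938 genes with such a probe set, and 0 probe sets that name several genes included a member. The family was taken up because Phlda1 stood among the genes with the smallest unadjusted p in the same comparison of diabetic with normal samples. The differences of all 3 members are therefore given as a description, with their errors and without a p.

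The samples were keratinocytes taken by laser capture from the leading tip of the epithelial tongue in mouse skin wounds, on day 3 after wounding. The diabetic group held 3 samples from mice in which a diet high in fat and in fructose, begun at 8 weeks of age and fed for 16 weeks, had induced diabetes. The normal group held 3 samples from mice kept on a control diet for as long. The model is thus one of diet, with no altered gene named in the labels, and both groups were wounded. The labels name neither strain nor sex, and do not say whether each biological replicate came from a separate mouse, so the errors measure the spread between these samples. Values are log2 probe set signals from 6 whole-transcript arrays, and each difference is the diabetic mean minus the normal mean, over n = 3 arrays in each. The comparison asks which transcripts of migrating keratinocytes differ in diabetes.

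Proteins of this family are built around a pleckstrin-homology-like domain, a fold that binds phosphoinositide lipids of the cell membrane. Phlda1, also known as TDAG51, carries further proline- and glutamine-rich stretches, is induced by stress, heat shock and ERK signalling, and has been described in hair follicle stem cells of human skin. Phlda2 is an imprinted gene, expressed from the maternal copy, and is best known for restraining growth of the placenta. Phlda3 is a target of p53 and competes with the kinase AKT for membrane lipids, which dampens AKT activity.

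The control regions of Phlda2 and Phlda3, whose differences had opposite signs, are shown for the 250 bases before the start listed for each. The RefSeq promoter table (GRCm38.p6) matched these 2 of the 3 genes. The Phlda2 window is chr7:143502525-143502774 on the minus strand, and the Phlda3 window is chr1:135765835-135766084 on the plus strand. The Phlda3 window ends next to the start of the annotated gene span, 135766085. The Phlda2 window lies inside its gene span, chr7:143501545-143503145, so the listed start is internal to that span. Both are written 5′ to 3′ along the gene, and capitals mark the letters TATAAA (the TATA motif), GGGCGG (the GC box) and CCAAT, searched on both strands.
Phlda2: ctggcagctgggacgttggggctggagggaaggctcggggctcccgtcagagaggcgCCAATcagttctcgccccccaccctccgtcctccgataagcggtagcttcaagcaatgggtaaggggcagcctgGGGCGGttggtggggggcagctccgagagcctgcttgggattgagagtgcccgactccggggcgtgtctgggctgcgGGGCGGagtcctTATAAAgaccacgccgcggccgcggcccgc
Phlda3: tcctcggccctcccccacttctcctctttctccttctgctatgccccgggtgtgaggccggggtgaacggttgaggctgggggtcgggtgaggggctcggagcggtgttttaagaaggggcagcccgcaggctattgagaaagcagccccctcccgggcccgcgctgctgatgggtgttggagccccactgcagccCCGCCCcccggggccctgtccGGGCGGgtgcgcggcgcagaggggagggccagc
The Phlda2 window held 1 TATAAA, which began 30 bases before the start, 1 CCAAT and 2 GC boxes. The Phlda3 window held 2 GC boxes, 1 of them on the opposite strand, and neither of the other motifs. Among the first windows of 27025 genes, 13.0% held TATAAA, 32.9% a GC box and 34.5% CCAAT on either strand. G and C made up 68.8% of the Phlda2 and 71.2% of the Phlda3 window, against a median of 52.0% over all windows. The motifs did not overlap one another, and the matches describe the letters of these windows alone.

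The arrays were dim, and this bears on each member. A background limit was set on every array at the 95th percentile of 1190 genes for olfactory and vomeronasal receptors, proteins of chemosensory tissue. It lay at 1.98, 2.01 and 2.12 on diabetic replicates 1 to 3 and at 2.11, 2.11 and 2.12 on the normal arrays. The share of genes above it was 29.1% to 36.5% on the diabetic and 27.4% to 28.4% on the normal arrays, and the part of this difference in the values below was not tested. The arrays correlated at 0.907 to 0.920 among diabetic samples, 0.887 to 0.900 among normal samples and 0.877 to 0.914 between groups, across genes, which are not independent replicates. Among 18 keratinocyte markers, 4 exceeded the limit on every array (Krt10, Sfn, Itgb4 and Lamb3). A further 6 never did (Krt6a, Krt16, Krt17, Itga6, Col17a1 and Cdh1). The basal keratin genes Krt5 and Krt14 were above it on 2 diabetic and 0 normal arrays each. Such counts depend on the limit of each array. Krt14 at 2.05 passed the limit of diabetic replicate 2, while at 2.07 it fell short of the higher limit of normal replicate 2. Trp63, a transcription factor of stratified epithelium, was above the limit on 0 diabetic and 2 normal arrays. E-cadherin (Cdh1), whose staining located the cells, was above it on none. In captured tissue of this kind fewer cells of a type and less RNA per cell cannot be told apart.

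Phlda1 (probe set 10366346) had higher signal in every diabetic sample than in any normal sample, as did 5.02% of all genes. The diabetic replicates measured 2.50, 2.56 and 2.61, and the normal replicates 1.77, 1.91 and 2.01. The means were 2.56 ± 0.05 (SD, n = 3) in diabetic and 1.90 ± 0.12 (SD, n = 3) in normal samples. The difference was 0.66 (SE 0.12), a signal ratio of 1.58. All 3 diabetic arrays exceeded the background limit, by 0.49 to 0.55, and all 3 normal arrays were below it, by 0.12 to 0.34. The normal level is therefore only bounded, and with each normal array set at its limit the signal was at least 1.36-fold higher in diabetic samples. This bound depends on the limit used. With the limit at the 99th percentile Phlda1 exceeded it on 0 arrays, and no bound could be given. The gap between the lowest diabetic and the highest normal array was 0.50.

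Phlda3 (probe set 10350146) had the opposite sign, with lower signal in every diabetic than in any normal sample, as had 5.66% of all genes. Diabetic replicates 1 to 3 measured 1.88, 1.90 and 1.93, and normal replicates 1 to 3 measured 2.76, 2.05 and 2.28. The means were 1.90 ± 0.02 (SD, n = 3) in diabetic and 2.36 ± 0.36 (SD, n = 3) in normal samples, so the normal samples were far more spread than the diabetic ones. The difference was -0.46 (SE 0.16), which is a normal-over-diabetic signal ratio of 1.38. No diabetic array exceeded the background limit, while normal replicates 1 and 3 did, by 0.65 and 0.15. Against the diabetic arrays set at their limits, the normal mean was 1.26-fold higher, or 1.09-fold without normal replicate 1. Normal replicate 2 was itself 0.06 below its limit, so this ratio is not a strict lower bound. Normal replicate 1 carried much of the size. Without it the difference was -0.26 (SE 0.13), and without normal replicate 2 it was -0.62 (SE 0.16).

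Phlda2 (probe set 10569437) was at or near the background limit in diabetic samples and below it in normal samples, and the groups overlapped. The signals were 1.99, 1.98 and 2.16 in the diabetic replicates, against 1.83, 2.02 and 1.54 in the normal replicates. Normal replicate 2 was above diabetic replicates 1 and 2, and normal replicate 3 was the lowest of the 6. The means were 2.04 ± 0.10 (SD, n = 3) and 1.80 ± 0.24 (SD, n = 3), a difference of 0.25 (SE 0.14). This was 1.32 times the spread between replicates (the pooled SD of 0.19), against 7.06 times for Phlda1 and -1.80 times for Phlda3. Phlda1 led to the family by its small unadjusted p in the same contrast, so its large ratio follows from that choice. Diabetic replicates 1 and 3 exceeded the limit by only 0.01 and 0.04, and no normal array exceeded it, so no bounded fold can be given. Without normal replicate 3 the difference was 0.12 (SE 0.13), and without normal replicate 2 it was 0.36 (SE 0.14).

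**Figure D1:**
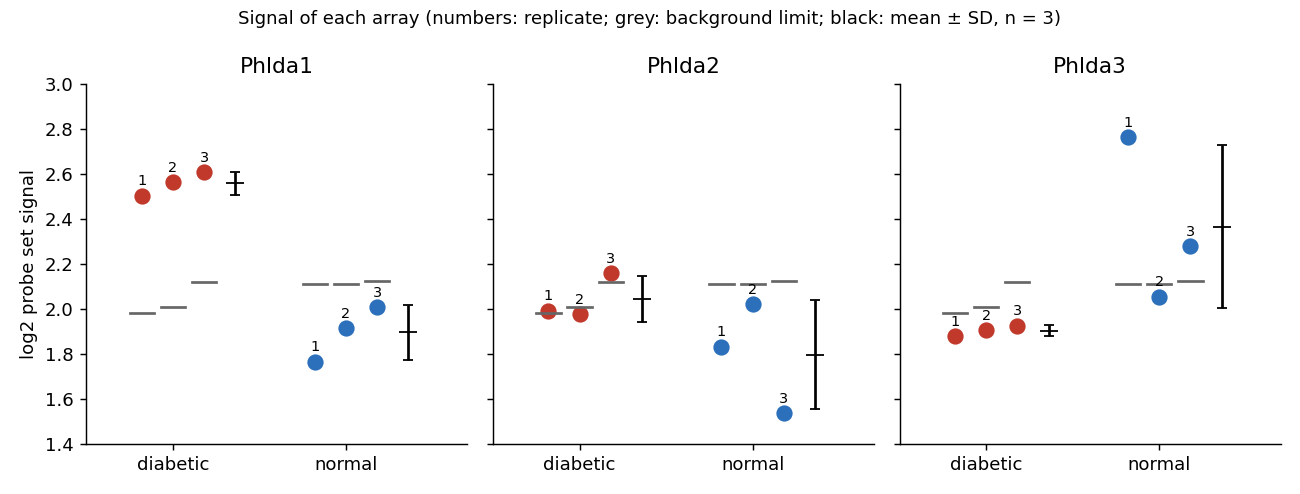
Log2 probe set signal (vertical axis) of Phlda1, Phlda2 and Phlda3 on each diabetic (red) and normal (blue) array, with replicate numbers, the background limit of that array (grey line) and the group mean ± SD (black, n = 3). Phlda1 lies above the limit on the 3 diabetic arrays alone, Phlda3 on normal replicates 1 and 3 alone, and Phlda2 on diabetic replicates 1 and 3 by at most 0.04.

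Set among all genes, none of the members is a call. With the limma fit and Benjamini-Hochberg adjustment, 0 of 19938 genes (0%) passed an adjusted p under 0.05, and 1109 (5.56%) had an unadjusted p under 0.05. The groups did not overlap for 10.7% of genes, made up of 5.02% higher and 5.66% lower in diabetic samples. A difference at least as large as that of Phlda1 was found in 37 genes (0.186%), and one at least as far below 0 as that of Phlda3 in 71 genes (0.356%). For Phlda2 the corresponding count was 1035 genes (5.19%). The median over all genes was less than 0.01 in size. Since the same contrast led to the family, these counts place the members and support no call.

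**Figure D2:**
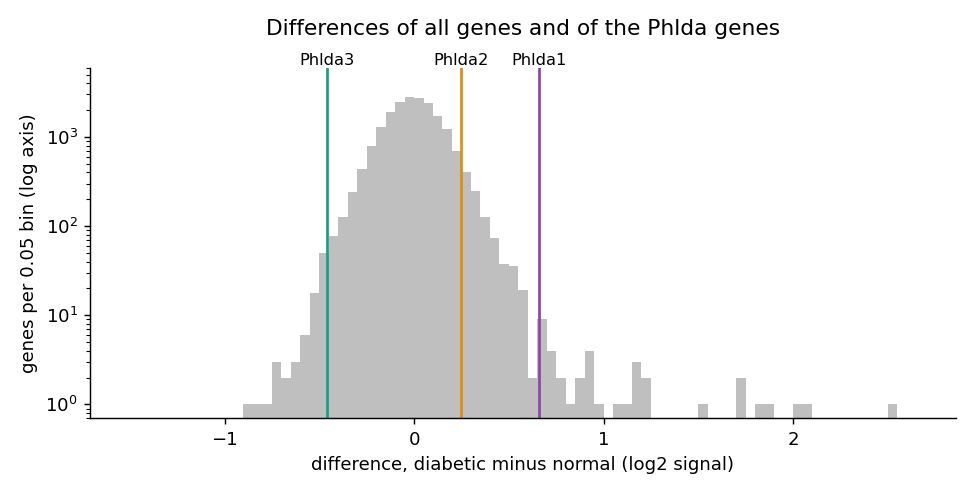
Number of genes (log axis) by difference in log2 signal, diabetic minus normal, in bins of 0.05 for all 19938 genes, with vertical lines at the 3 Phlda genes. Phlda1 (0.66) and Phlda3 (-0.46) lie toward opposite ends of the distribution and Phlda2 (0.25) nearer its centre.

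The sign of each member's difference was the same in every alternative that could be computed, but many of these could not turn it. Other variance models, the filters, the mean of probe sets and the replicate block leave each difference as it is. Leaving out 1 array cannot turn the sign of Phlda1 or Phlda3, whose groups did not overlap. Phlda1 ranged from 0.60 to 0.72 over 16 alternatives in scaling, variance model, filter and arrays left out. Its lowest value came without normal replicate 1 and its highest without normal replicate 3. Phlda3 ranged from -0.62 to -0.26 and Phlda2 from 0.12 to 0.36, each over 15 alternatives, since both genes drop out when a gene must exceed the background limit on at least 3 arrays.

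**Figure D3:**
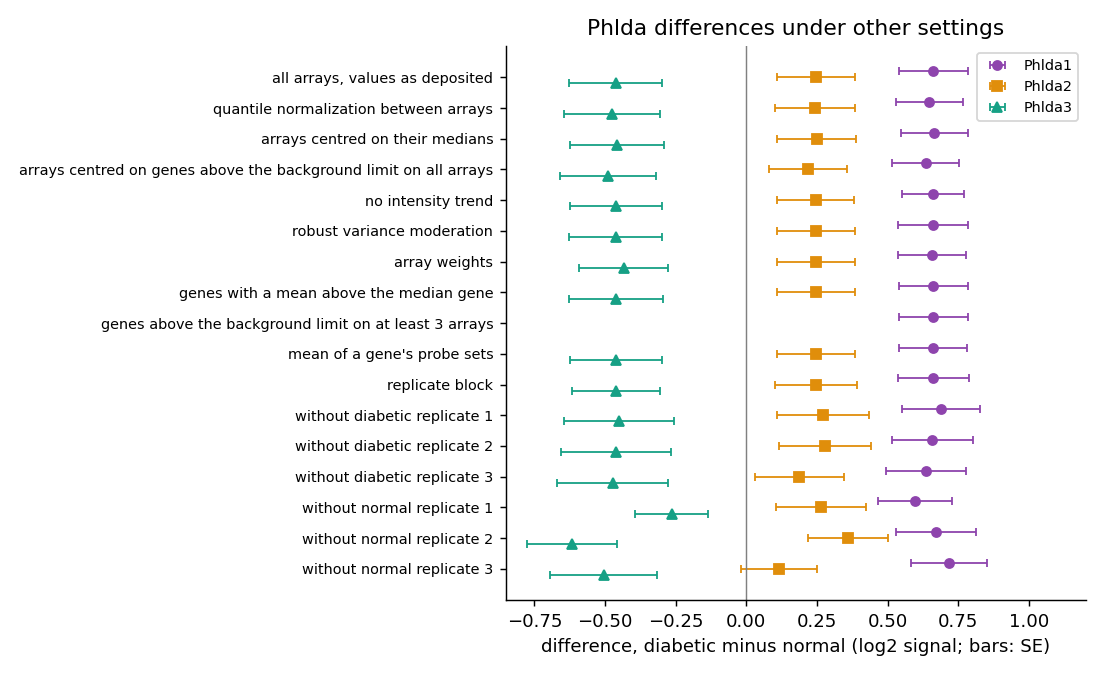
Difference in log2 signal, diabetic minus normal (horizontal axis, bars are limma's SE), of Phlda1 (circles), Phlda2 (squares) and Phlda3 (triangles) under each setting (rows). Phlda1 stays between 0.60 and 0.72, while Phlda3 moves to -0.26 without normal replicate 1 and Phlda2 to 0.12 without normal replicate 3.

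Genes with the array profile most like that of Phlda1 were sought among 4582 other genes above the background limit on all arrays of at least 1 group. Likeness was the root-mean-square distance over the 6 arrays between log2 signals, each gene taken minus its own mean. The median distance was 0.35. The closest gene was Lemd2, which encodes a protein of the inner nuclear membrane, at a distance of 0.11. Its diabetic replicates measured 2.97, 3.18 and 3.03, and its normal replicates 2.32, 2.67 and 2.56. Fbl, the gene of the nucleolar RNA methyltransferase fibrillarin, was at a distance of 0.12 and differed between the groups by 0.56 (SE 0.15). Ccdc12 followed at 0.13, with a difference of 0.47 (SE 0.14) that was 0.19 with the mean of its probe sets. Itprid2 and Gabarap, an autophagy gene of the ATG8 family, were both at 0.14, with differences of 0.56 (SE 0.16) and 0.40 (SE 0.13). None of the 5 passed in limma, with an adjusted p of 0.780 each, and their group difference follows from the way they were chosen. Phlda2 and Phlda3 were not above the limit throughout either group, so no such genes were sought for them.

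**Figure D4:**
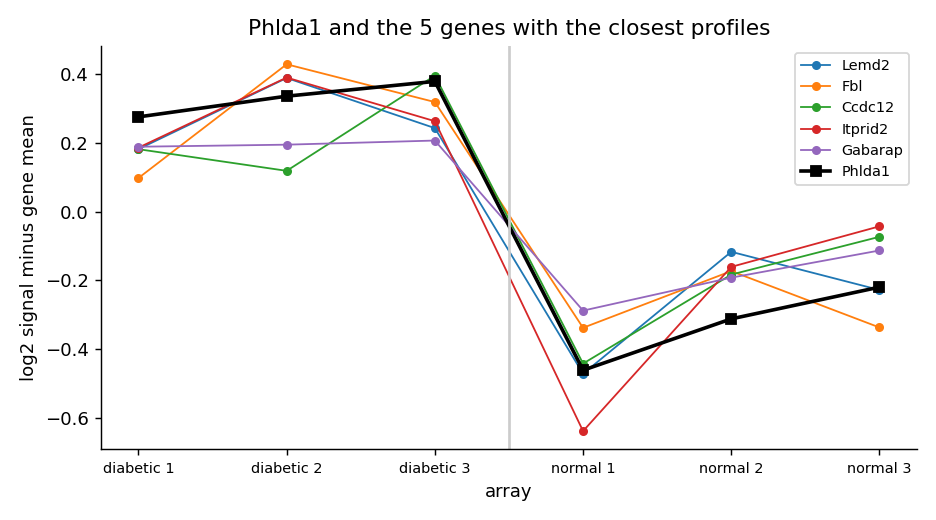
Log2 signal minus the mean of each gene (vertical axis) on the 6 arrays (horizontal axis) for Phlda1 (black squares) and the 5 genes with the closest profiles (coloured circles). In all 6 genes each diabetic array lies above each normal array, and normal replicate 1 is the lowest.

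The wider gene groups that the members belong to, or are known to answer to, gave no call. The 8 lists together named 213 genes, of which 197 were measured. In the limma fit 0 of the 197 passed after adjustment over all genes, with a smallest adjusted p of 0.780. An unadjusted p under 0.05 was reached by 9 of them (4.57%), 5 being higher and 4 lower, where all genes gave 2.64% higher and 2.92% lower. Their median difference was less than 0.01 in size. The groups did not overlap for 24 of the 197 (12.2%), near the 10.7% of all genes. The lists were uneven in this, and that was not tested. Of 31 AKT and phosphoinositide genes, 5 were so placed higher and 2 lower in diabetic samples. Of 25 heat shock and stress genes, 4 were so placed higher and 2 lower. The count was 0 for 21 imprinted genes elsewhere and 0 for 22 hair follicle stem cell genes.

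The first pair of lists holds genes that, like Phlda1, answer to ERK signalling or to stress. Of 27 measured genes of ERK output, 2 were lower and 0 higher by an unadjusted p under 0.05, and the median difference was -0.02. Being lower, both genes had the opposite sign to Phlda1, and any link to it was not tested. Dusp4, a phosphatase that switches off MAP kinases, measured 1.25, 1.60 and 1.38 in diabetic samples and 2.10, 1.85 and 1.66 in normal samples. It differed by -0.46 (SE 0.14), with every array below the background limit. The immediate-early gene Ier3 differed by -0.35 (SE 0.13), which was -0.24 without normal replicate 3. It was above the limit on 0 diabetic arrays and 1 normal array. Of 25 heat shock and stress genes, 2 were higher and 1 lower, with a median of 0.07. The chaperone gene Hspa8 differed by 1.73 (SE 0.66), which was 0.98 without diabetic replicate 1 and 0.78 with the mean of its probe sets. Its arrays were widely spread, at 6.64, 4.97 and 3.81 in diabetic and 3.01, 4.84 and 2.37 in normal samples, and overlapped. Hspe1, the mitochondrial co-chaperonin gene, differed by -0.27 (SE 0.12) and was below the limit on all arrays.

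The lists around Phlda3 gave no call either. Among 30 measured p53 targets 1 gene was higher by an unadjusted p under 0.05 and 0 were lower, with a median of 0.05. The one was Sesn2, a stress-induced inhibitor of mTOR signalling that is also on the stress list, at a difference of 0.26 (SE 0.12), above the limit on 2 diabetic and 0 normal arrays. Its sign was opposite to that of Phlda3, and any link between these genes was not tested. Of 31 genes of the PI3K and AKT pathway, 2 were higher and 0 lower, with a median of 0.03. Akt2, which encodes the AKT kinase best known from insulin action, was above the limit on all arrays, at 3.39, 3.65 and 3.46 in diabetic and 3.02, 3.11 and 3.31 in normal samples. The difference was 0.36 (SE 0.15, adjusted p 0.877 in limma). The receptor gene Igf1r differed by 0.25 (SE 0.11) with every array below the limit.

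Around Phlda2, 15 genes of its imprinted cluster and of the neighbouring Igf2 cluster were measured. Of these, 1 was higher by an unadjusted p under 0.05 and 0 were lower, with a median of 0.05. Cars, a cysteinyl-tRNA synthetase gene, measured 2.41, 2.23 and 2.23 in diabetic samples and 1.93, 1.98 and 2.03 in normal samples. It differed by 0.31 (SE 0.12) and was above the limit on the 3 diabetic and 0 normal arrays. Among 21 imprinted genes elsewhere, 0 had an unadjusted p under 0.05, and the median was less than 0.01 in size.

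Other genes of the pleckstrin-homology kind gave no call. Of 28 measured, 1 was lower by an unadjusted p under 0.05 and 0 were higher, with a median of -0.04. The lower one was the endosomal phosphoinositide-binding gene Plekhf1, at -0.54 (SE 0.21), which was -0.23 without normal replicate 3. The family B genes were picked out by symbol after their values were seen. Phldb1 differed by 0.17 (SE 0.13), Phldb2 by 0.01 (SE 0.12) and Phldb3 by -0.20 (SE 0.19). Of 22 genes of hair follicle stem cells, where Phlda1 is a known marker in human skin, 0 had an unadjusted p under 0.05, with a median of 0.05.

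**Figure D5:**
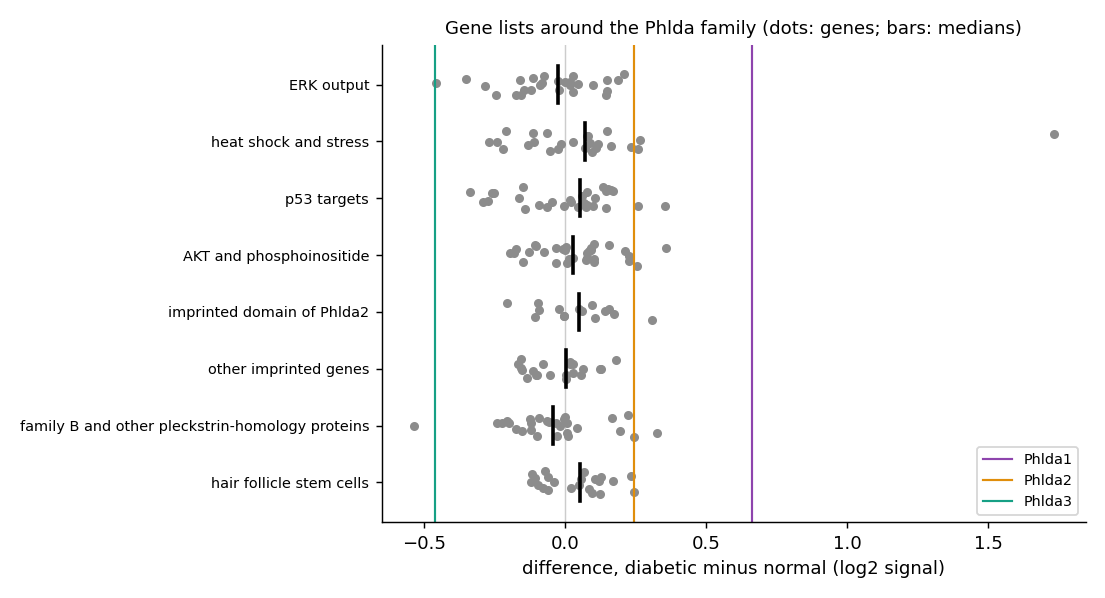
Difference in log2 signal, diabetic minus normal (horizontal axis), of each measured gene (grey dots) in the 8 gene lists (rows), with list medians (black bars) and lines at Phlda1, Phlda2 and Phlda3. The medians lie between -0.04 and 0.07, and Hspa8 is the dot at 1.73.

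Markers of other cells that could lie within the capture were read beside the members. Skeletal muscle genes had a mean signal of 2.22 to 2.31 on the diabetic and 2.11 to 2.19 on the normal arrays. These ranges did not overlap. Those of the neutrophil list, given below, did not either, with the lower signal in diabetic samples. Nor did those of the imprinted list around Phlda2, at 2.038 to 2.088 on the diabetic and 2.004 to 2.036 on the normal arrays. Of the 14 muscle genes, 10 had a positive and 4 a negative difference, with a median of 0.09, and 0 passed adjustment in limma. The limit was exceeded on every array by 5 of them and never by 5. The groups did not overlap, with higher diabetic signal, for 4 of the 14, where 5.02% of all genes were so placed. An unadjusted p under 0.05 with higher signal was found for 2 of the 14 (14.3%), where all genes gave 2.64%. These were Myh2 at 0.35 (SE 0.12) and Myot at 0.27 (SE 0.11), whose limma adjusted p were 0.812 and 0.864. Myot never exceeded the limit, and Myh2 did so on a single array, a diabetic one. Fibroblast markers were at 2.35 to 2.45 on the diabetic and 2.32 to 2.36 on the normal arrays, with 4 of 11 above the limit on all arrays. Endothelial markers, with 2 of 10 above it, spanned 1.99 to 2.07 and 1.98 to 2.02. Macrophage and monocyte, neutrophil, and T and Langerhans cell lists each had 0 genes above the limit on all arrays. Their mean signals were 1.58 to 1.60, 1.71 to 1.74 and 1.77 to 1.81 on the diabetic arrays. On the normal arrays they were 1.58 to 1.66, 1.75 to 1.80 and 1.72 to 1.87. Keratinocyte markers, with Trp63 the only one at an unadjusted p under 0.05 (-0.31, SE 0.14), were at 2.01 to 2.10 on the diabetic and 2.07 to 2.23 on the normal arrays. The part of these lists in the values of Phlda1, Phlda2 and Phlda3 was not tested.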

How the data were processed

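The authors deposited log2 signals for 35556 probe sets on each of 6 arrays. Per the submitters' processing notes Partek was used, with no version. The sources used here do not say how background was corrected or how signals were normalized and summarized. The log base was taken from the values, whose maximum was 13.34. In the array annotation 21789 probe sets named 1 gene, 1621 named several and 12146 were unlisted. Symbols were updated by gene ID for 21698. The brightest probe set stood for each of the 999 genes with several. No filter or further scaling was applied. All 19938 genes were fitted with limma 3.58.1 in R 4.3.3 (lmFit, eBayes with intensity trend, group as the only term) with Benjamini-Hochberg adjustment over all genes. The code was tested on simulated data. Alternatives changed the scaling, variance model, array weights, filter, probe set rule, background limit, replicate block and arrays used.

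The members and gene lists were chosen with earlier results of these data known. Named genes were the members, up to 3 genes per list with the smallest unadjusted p under 0.05, markers used to check the cell type, and the 5 genes closest in profile to a member that exceeded the background limit on all arrays of a group, with no predicted gene, chemosensory receptor or small RNA admitted. The number of arrays limits the precision. Columns belonging to other samples numbered 0.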

Additional observations from a re-analysis of the deposited data

How the results depend on the processing

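The differences of Phlda1, Phlda2 and Phlda3 kept their sign under quantile normalization, centring on medians or on detected genes, and array weights. They also did with each array left out, which cannot turn the sign of Phlda1 or Phlda3, whose groups did not overlap. Other variance models, both filters where a member passed them, the mean of probe sets and the replicate block cannot change these differences. Leaving out 1 array gave 0.60 to 0.72 for Phlda1, 0.12 to 0.36 for Phlda2 and -0.62 to -0.26 for Phlda3. The count of genes past the adjusted threshold was 0 in all alternatives except those leaving out an array, where it was 0 to 2. The 9 list genes at an unadjusted p under 0.05 became 5 among genes brighter than the median gene and 3 among genes above the background limit on at least 3 arrays, since fewer genes were tested, and 5 to 14 with 1 array left out. The list count at an adjusted p under 0.05 stayed 0 in all of these. With the limit at the 90th percentile of the receptor genes Phlda1 was above it on 5 arrays, Phlda2 on 4 and Phlda3 on 6. At the 99th percentile these became 0, 0 and 1, against 3, 2 and 2 at the 95th.

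With the replicate number as a block, the differences were 0.66 (SE 0.13), 0.25 (SE 0.15) and -0.46 (SE 0.16) for Phlda1, Phlda2 and Phlda3, and 6 list genes had an unadjusted p under 0.05. Deviations of same-numbered arrays from their group means correlated at -0.018, 0.0078 and 0.014 across genes. No pairing by number was seen, but most genes were below the background limit, so these correlations cannot exclude one.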
